A study of Mus musculus with 9 samples.

Results

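Private open regions were the stretches of chromatin that were listed as open in every TetR-MYBTA library and in no library of the other lines. They came from an ATAC-seq series in the TOT2N variant of E14, a mouse embryonic stem cell line, profiled as the unmodified line (WT), with a stably integrated TetR construct, and with a stably integrated TetR-MYBTA construct. The labels name no other agent, dose or time, do not describe the constructs further, and do not say whether a line is 1 clone or whether its 3 libraries came from separate cultures. The p-values given here therefore measure only how libraries vary, and that variation may be technical. Peaks of all 9 lists that overlapped by at least 1 bp were joined into 116362 regions, 103630 of them on autosomes outside chromosome 1 from 88 Mb onward and chromosome 11 below 44 Mb. Those segments were left out because an earlier look at these data showed them raised as a whole in TetR-MYBTA. Of the 103630 regions, 451 (0.435%) had a peak in 3 of 3 TetR-MYBTA libraries and in 0 of the 6 TetR and WT libraries, and these are the private regions described here. The opposite pattern, a peak in 0 of 3 TetR-MYBTA and 6 of 6 other libraries, was found for 1298 regions (1.25%). List lengths differed between libraries, and the opposite pattern was not counted with lists of equal length. Its number is therefore not compared with the 451.

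ATAC-seq marks DNA that the transposase Tn5 can reach, which in stem cells is found mostly at promoters and enhancers. TetR is the bacterial tetracycline repressor, a protein that binds the tet operator and is used to bring a fused domain to an engineered site. MYB regulates transcription in immature blood cells and recruits coactivators through its transactivation region. The title of the series concerns enhancer activation by sustained MYB activity. Sites away from promoters are commonly enhancers, but accessible DNA far from genes can also mark sites with no known function.

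Sequencing depth ran from 16.4 to 23.0 M tags per library, with 45136 to 70230 peaks. TetR-MYBTA replicate 3 stood apart, with the shortest list (45136 peaks) and the lowest share of tags in peaks, 5.48% against 7.44 to 9.78% in the other 8 libraries. Of 10 embryonic stem cell marker genes, 5 carried peaks at a gene end in each of the 9 libraries, among them Sox2, Klf4 and Prdm14. Esrrb and Zfp42 had none at their ends in any library. Nanog had one in 4 libraries, and Pou5f1 and Tdgf1 in 2 each. The Nanog peaks were in TetR replicates 1 to 3 and WT replicate 3, and in no TetR-MYBTA library. Among 6 fibroblast, 4 endoderm, 3 neural and 4 blood cell markers, the blood genes Spi1 and Tal1 were the ones with such a peak in 9 of 9 libraries. Other markers of these cell types also had peaks at their ends: the fibroblast genes Col1a1 and Col1a2 in 8 libraries each and Thy1 in 7, the neural gene Neurog2 in 8, and Pax6, Sox1 and the endoderm gene Gata6 in 6 each. Sox1 had one in all 6 TetR and WT libraries and in 0 of 3 TetR-MYBTA libraries. There was none in any library at Ptprc, Gata1, Pdgfra, Col3a1, Gata4, Sox17 and Dab2, and Twist2 had one in 1 library. The part of other cell types in the private regions was not tested.

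Some private regions lay at annotated transcription starts, and for these the sequence is known. RefSeq promoter windows (GRCm38.p6, 250 bases before to 50 after each start, 32851 windows on 20 chromosomes) were available for 440 of the 451 regions. Only 8 (1.82%) touched a window, against 10.6% of all regions, 2.53% of TetR private regions and 4.38% of WT private regions. At 5 of the 8 the private region touched windows of long noncoding RNA (lncRNA) genes only, and 5 held a listed start site. Shown are 3 lncRNA windows and 1 of a protein-coding gene, to let the accessible bases be seen near a start site. The start site lies inside the private region for Gm30009, Gm40289 and A26c2, and outside it for Gm15290. The private regions cover 124 to 234 of their 300 bases. The sequences run 5′ to 3′ on the gene's strand, and capitals mark the bases inside the private region.
Gm30009 (lncRNA, minus strand, chr11:110533339-110533638): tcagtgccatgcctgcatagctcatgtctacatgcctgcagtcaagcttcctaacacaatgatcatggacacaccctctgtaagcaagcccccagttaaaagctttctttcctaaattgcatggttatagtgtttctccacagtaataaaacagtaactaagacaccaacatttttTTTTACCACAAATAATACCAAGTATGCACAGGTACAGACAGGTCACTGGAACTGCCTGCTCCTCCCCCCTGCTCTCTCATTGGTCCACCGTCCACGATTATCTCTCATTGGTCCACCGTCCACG
Gm15290 (lncRNA, minus strand, chr13:111549860-111550159): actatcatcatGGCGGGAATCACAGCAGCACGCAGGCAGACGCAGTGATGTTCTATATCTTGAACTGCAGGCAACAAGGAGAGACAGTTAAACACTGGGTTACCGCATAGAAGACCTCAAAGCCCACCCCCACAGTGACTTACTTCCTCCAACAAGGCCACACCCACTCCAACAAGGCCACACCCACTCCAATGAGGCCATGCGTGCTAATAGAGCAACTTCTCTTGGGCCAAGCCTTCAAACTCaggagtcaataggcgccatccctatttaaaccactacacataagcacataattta
Gm40289 (lncRNA, plus strand, chr5:37971668-37971967): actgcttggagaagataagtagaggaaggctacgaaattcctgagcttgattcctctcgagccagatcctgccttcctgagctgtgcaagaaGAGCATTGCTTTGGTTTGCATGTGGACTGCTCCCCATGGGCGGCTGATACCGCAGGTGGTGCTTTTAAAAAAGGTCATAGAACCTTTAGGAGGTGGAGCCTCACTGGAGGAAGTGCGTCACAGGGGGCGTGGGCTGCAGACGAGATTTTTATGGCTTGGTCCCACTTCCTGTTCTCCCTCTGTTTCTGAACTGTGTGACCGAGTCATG
A26c2 (protein-coding, minus strand, chr7:62823694-62823993): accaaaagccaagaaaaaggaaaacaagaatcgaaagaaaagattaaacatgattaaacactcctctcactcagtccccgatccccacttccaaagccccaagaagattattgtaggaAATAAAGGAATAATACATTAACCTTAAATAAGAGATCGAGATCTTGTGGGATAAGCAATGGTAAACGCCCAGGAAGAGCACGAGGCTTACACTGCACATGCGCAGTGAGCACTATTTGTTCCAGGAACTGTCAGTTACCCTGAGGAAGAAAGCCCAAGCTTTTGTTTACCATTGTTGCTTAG

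The core that MYB proteins bind was searched for in the 10 windows that the 8 regions touched, as AACNG on either strand, of which AACGG and AACTG are special cases. AACNG was in 9 of the 10 windows, AACTG in 7 and AACGG in 1. Over all 32851 windows the shares were 80.3%, 44.8% and 17.4%, so a match is common in any promoter window. Inside the capitals AACNG stood 1 time in Gm30009, 2 times in Gm15290, 3 times in Gm40289 and 2 times in A26c2. The bases of the Gm15290 window inside the private region were not unique: 27 other promoter windows shared a word of 20 bases with them. For Gm30009, Gm40289 and A26c2 no other window shared a word of 20 bases with the capitals, and 30.6% of all windows shared such a word with another window.

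Most private regions lay between genes, and many lay in gene deserts. Between protein-coding genes were 295 of the 451 (65.4%, exact 95% interval 60.8 to 69.8%, counting error only), inside genes 141 (31.3%) and within 1 kb of a gene end 15 (3.33%). Of all 103630 regions, 44.2% lay between genes, 39.0% inside them and 16.8% at gene ends. More than 100 kb from the nearest protein-coding gene were 150 private regions (33.3%), against 14.8% of all regions, 12.2% of the 23279 regions with a peak in all 9 libraries, 10.8% of the 1283 regions private to TetR and 10.1% of the 634 regions private to WT. The private sets of TetR and WT, taken by the same rule, made up 1.24% and 0.612% of regions. No protein-coding gene had its midpoint within 500 kb of 67 private regions (14.9%), as was so for 2.73% of TetR private, 2.37% of WT private and 5.62% of all regions. The median private region had 5 gene midpoints within 500 kb, against 8 for TetR private and all regions and 10 for WT private regions. Without TetR-MYBTA replicate 3 the share between genes was 66.1% of 1331 regions. The share at gene ends was less stable: it was 5.87% without TetR-MYBTA replicate 1, 5.20% without replicate 2, and 1.75% among the 401 regions with no TetR or WT peak within 1 kb.

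**Figure D1:**
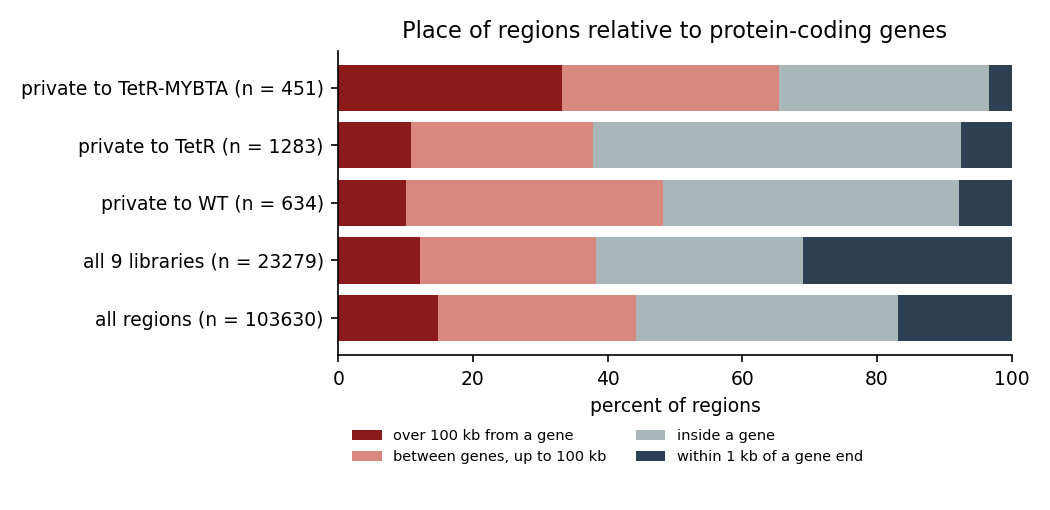
Percent of regions (x axis) over 100 kb from a protein-coding gene, between genes up to 100 kb away, inside a gene, or within 1 kb of a gene end, in 5 sets of regions (rows, with their number). The top bar, TetR-MYBTA private regions, has 33.3% over 100 kb from a gene, and the other 4 sets have 10.1 to 14.8%.

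The same question was put to regions outside the private ones. Regions listed in a single library share no member with the private set. Those of a TetR-MYBTA library are still chosen by a like filter, since they too lack a peak in all 6 TetR and WT libraries. The p-values for regions of 1 library are therefore not free of that choice. Of those listed only in TetR-MYBTA replicate 1, 2 or 3, 30.1, 30.5 and 21.4% lay over 100 kb from a gene. In TetR replicates 1 to 3 the values were 15.3, 14.3 and 10.7%, and in WT replicates 1 to 3 they were 11.7, 13.6 and 12.4%. All 3 TetR-MYBTA libraries thus lay above all 6 others, replicate 3 by the least. The means were 27.3 ± 5.12% (SD, n = 3) and 13.0 ± 1.72% (SD, n = 6), a ratio of 2.10 (two-sided exact permutation p = 0.0119, adjusted p = 0.0159 over 8 such measures, the smallest p that 3 against 6 libraries can give being 0.0119). The share inside genes was lower, at 32.2 ± 0.347% (SD, n = 3) against 45.6 ± 1.56% (SD, n = 6; exact permutation p = 0.0119, adjusted p = 0.0159). The share at gene ends was 11.1 ± 4.75% against 11.5 ± 2.43% (exact permutation p = 0.893). Among all regions other than the private ones the difference was smaller, with 15.4 ± 0.880% over 100 kb from a gene in TetR-MYBTA (SD, n = 3) and 12.4 ± 0.388% in the other 6 libraries (SD, n = 6; exact permutation p = 0.0119, adjusted p = 0.0159). TetR-MYBTA libraries also had the lowest shares of tags in peaks (5.48 to 7.57%, against 7.79 to 9.78%), and the part of this in the result was not tested.

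The private regions farthest from genes were spread over several chromosomes. In all, 53 lay over 500 kb from a protein-coding gene and 25 over 1 Mb. The farthest lay 2045 kb from Pcdh20, a protocadherin gene (chromosome 14, 90516665 to 90516890, mm10 as throughout). Next came one 1744 kb from Slc10a2, the bile acid transporter gene of the gut (chromosome 8, 6849712 to 6849964). Others lay 1590 kb from Pcdh7 (chromosome 5, 59722918 to 59723299) and 1587 kb from Cdh11 (chromosome 8, 101045081 to 101045349), both cadherin superfamily genes. These desert regions stood lower in the peak lists than those inside genes. List place is given as a percentile of the row order, 100 being the first row. The median of the regions' mean percentiles was 28.6 for the 150 regions over 100 kb from a gene and 35.6 for the 141 inside genes. It was 32.1 for the 145 between genes up to 100 kb away, and lowest, 21.3, for the 15 at gene ends. A TetR or WT peak was 21.8 kb away for the median desert region, against 7.23 kb for those inside genes.

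Few genes collected several private regions, and these often lay far from the gene. The 451 regions had 398 different nearest genes, of which 355 had 1 region and 8 had 3 or more; these 8 were singled out after their values were seen. Aga, which encodes a lysosomal amidase, had 4 at 10.3, 145, 949 and 1450 kb. Htr1b, a serotonin receptor gene, had 4 at 21.9, 22.5, 143 and 449 kb. Epha7, an ephrin receptor gene, had 3 at 456, 825 and 1458 kb, and Edil3, the gene of an extracellular matrix protein, had 3 at 291, 659 and 931 kb. The other genes with 3 were Stim2, a calcium sensor gene of the endoplasmic reticulum, Rfpl4b, Cdh18 and Rap1gap2. Neighbouring private regions were seldom close: 411 had no other within 100 kb, 17 groups held 2, and 2 groups held 3.

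Those 2 groups lay in and beside single genes. Rap1gap2, the gene of a GTPase-activating protein for Rap1, held 3 along its 228 kb (chromosome 11, 74406686 to 74406896, 74506888 to 74507199 and 74598117 to 74598520), with mean list percentiles of 53.4, 31.0 and 28.7. At the gene of the basement membrane protein nephronectin, Npnt, 2 lay inside (chromosome 3, 132893774 to 132893988 and 132903513 to 132903721), at mean percentiles of 47.7 and 65.7. The other member of that group lay 13.9 kb from Tbck (chromosome 3, 132855545 to 132855773), at 41.3. All 6 were more than 1 kb from any TetR or WT peak.

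Inside genes, private regions fell often in very long ones. The median host gene was 199 kb long, against 110 kb for all regions inside genes, 97.0 kb for TetR private and 95.6 kb for WT private regions. Host genes over 200 kb held 70 of the 141 (49.6%), as against 32.6% over all regions, 27.6% for TetR private and 24.5% for WT private ones. A listed set of 30 long neuronal adhesion and synapse genes had 10 private regions within 50 kb, or 2.22% of the private regions, against 1.18% of all regions; 8 of the 1283 TetR private and 4 of the 634 WT private regions lay there. All 10 were inside the gene body of a different gene, among them Cntnap2, Robo2, Cntn5, Lrp1b, Ctnna3, Csmd1, Cdh13 and Ptprd. Cntnap2, which encodes a neurexin-like adhesion protein, had the one highest in the lists (chromosome 6, 47181448 to 47181671). Its percentiles in TetR-MYBTA replicates 1 to 3 were 78.2, 76.6 and 59.7, with a peak of another line 0.722 kb away. The region in Robo2, an axon guidance receptor gene (chromosome 16, 74231854 to 74232078), stood at 43.7, 62.4 and 42.5, and was 15.7 kb from such a peak. That in Ptprd, a receptor phosphatase gene of 2271 kb (chromosome 4, 77220308 to 77220518), stood at 3.47, 12.9 and 1.23, near the end of all 3 lists. The list was picked for long genes, and the part of gene length in this count was not tested.

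Lists of genes tied to MYB or to cell identity had 0 or 1 private regions nearby, too few to tell from the share over all regions. Upper limits here take 3 counts as the most that 0 could stand for, so they are approximate and treat regions as independent. Within 50 kb of 30 blood progenitor and MYB-associated genes, such as Kit, Myc and Runx1, lay 279 regions of the union and 0 private ones. That allows a share of up to about 1.08%, beside the 0.435% over all regions. The MYB family genes Myb, Mybl1 and Mybl2 had 0 of 30 regions (up to 10%), and 9 coactivator genes, among them Crebbp and Ep300, 0 of 117 (up to 2.56%). There were likewise 0 of 118 near neural, 0 of 138 near mesoderm and endoderm, 0 of 115 near trophoblast and 0 of 144 near formative and primed pluripotency genes. Each of these limits lies above 0.435%, so a share like that over all regions could not be told from 0 at these numbers. Of 22 naive pluripotency genes, Dppa3 alone had one. Dppa3 encodes Stella, a protein of naive stem cells and the germ line, and the region lay 14.04 kb away (chromosome 6, 122644312 to 122644529), at percentiles of 51.2, 32.1 and 48.3. The naive list held 1 of 268 regions, near the share over all regions.

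Large gene families held few private regions each. Olfactory receptor genes (Olfr) had 7 private regions within 50 kb (1.55% of private and 1.14% of all regions), Vmn2r pheromone receptor genes 3 (0.665 and 0.256%), and Vmn1r genes 1 (0.222 and 0.221%). Zinc finger (Zfp) genes had 8 (1.77 and 2.53%) and solute carrier (Slc) genes 7 (1.55 and 3.64%). Receptor and zinc finger families hold near-identical copies, where the placement of reads is uncertain.

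Most private regions stood low in the TetR-MYBTA peak lists. Their median percentile was 36.5 in replicate 1, 35.0 in replicate 2 and 24.7 in replicate 3, and 39 regions were in the upper 50% of all 3 lists, while 263 were in the lower 50% of all 3. For comparison, the mean percentile had a median of 31.0 over the private regions, 32.04 over the 491 regions (0.474%) with a peak in 3 of 3 TetR-MYBTA and 1 of 6 other libraries, and 69.5 over regions with a peak in all 9. Regions private to TetR and to WT also stood low in their own lists, with medians of 28.8 and 26.1. How many tags these peaks held above the calling threshold of 11 or 12 was not tested.

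**Figure D2:**
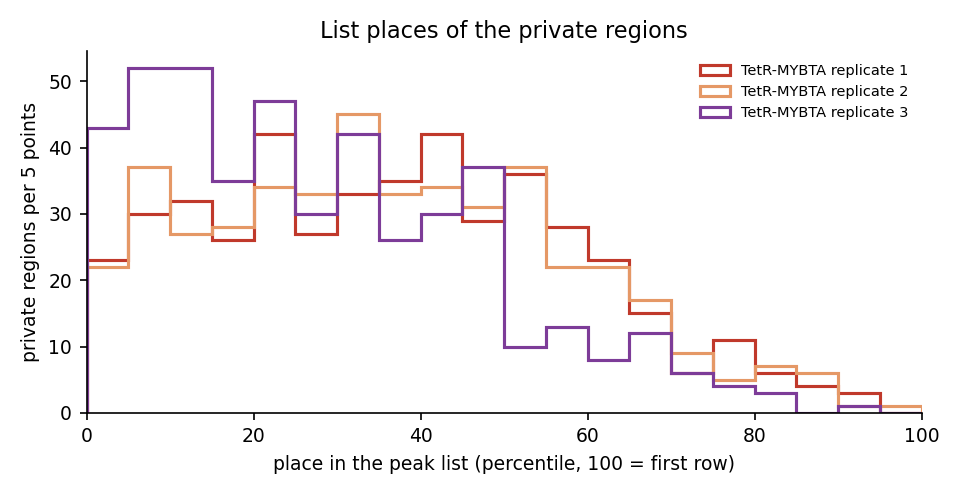
Number of the 451 private regions (y axis, per 5 points) by percentile in the peak list (x axis, 100 is the first row) of each TetR-MYBTA library (lines). The medians are 36.5, 35.0 and 24.7 for replicates 1, 2 and 3, and few regions stand above 80.

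The leading regions were exceptions to this and stood high in all 3 lists. Among regions more than 1 kb from any peak of the other lines, the first lay between genes, 82.7 kb from Itgb1, the integrin beta 1 gene (chromosome 8, 128602708 to 128602937), with percentiles of 94.5, 95.3 and 93.5 in replicates 1 to 3. No TetR or WT peak was within 35 kb of it: the nearest were 35.6 kb away in both lines. A pair inside Tmem178 (chromosome 17, 80948822 to 80949030 and 80949470 to 80949710) had percentiles of 90.9, 89.2 and 84.04, and of 87.7, 85.0 and 79.9. The first 4 places were taken by these and a region 15.5 kb from Nup160, a nuclear pore gene (90.6, 88.5 and 81.1).

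Next came regions near or in genes of several kinds. One lay 38.9 kb from Bhlhe40, a basic helix-loop-helix repressor gene (chromosome 6, 108705840 to 108706069; 76.8, 85.6 and 84.8). Another was inside Ddx58, which encodes the viral RNA sensor RIG-I (chromosome 4, 40218474 to 40218692; 87.0, 82.0 and 74.6). A region inside the glutathione transferase gene Gsta3 (chromosome 1, 21253871 to 21254155) stood at 78.9, 84.5 and 79.2. The region at the start site of Gm30009, whose sequence is given above, lay 7.72 kb from Map2k6, a kinase gene of the p38 pathway (chromosome 11, 110533242 to 110533462; 81.8, 85.1 and 73.4). The others of the first 12 lay 4.28 kb from the calcineurin gene Ppp3ca (chromosome 3, 136665231 to 136665439) and inside Ncoa7 (chromosome 10, 30727570 to 30727793), Minar1 (chromosome 9, 89610576 to 89610878) and the kinesin gene Kif5c (chromosome 2, 49713710 to 49713997). Minar1 had the widest spread of these 12, with percentiles of 82.9, 91.5 and 60.9. Over all private regions the SD of the 3 percentiles had a median of 11.8.

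At gene ends the private regions were few, and the median one had a TetR or WT peak 0.787 kb away. Of the leading 12 at gene ends, 5 had a TetR or WT peak within 1 kb, such as that at the zinc finger gene Zfp946 (0.787 kb from a WT peak; chromosome 17, 22425039 to 22425247) and that at the amino acid transporter gene Slc38a1 (0.033 kb from a TetR peak; chromosome 15, 96642696 to 96642978). Without one were those at Zfp558 (chromosome 9, 18452792 to 18453026; percentiles 54.5, 53.6 and 60.9), at Pvalb, the gene of the calcium buffer parvalbumin (chromosome 15, 78190981 to 78191237; 63.2, 61.1 and 39.9), and at Havcr1 (chromosome 11, 46779920 to 46780156; 33.7, 15.8 and 2.66). The regions at A26c2 and Tecrl stood at mean percentiles of 20.1 and 12.4. Of all 451 regions, 50 had a TetR or WT peak within 1 kb and 401 did not.

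How far the private state recurred was measured in libraries not used to choose regions. Regions were chosen on 2 TetR-MYBTA libraries and by absence from 4 others, 2 of TetR and 2 of WT, and then looked for in the remaining library of each line. With replicate 1 held out, 65.9% of 984 regions had a peak in the TetR-MYBTA library (exact 95% interval 62.8 to 68.8%, counting error only), 19.2% in the TetR library and 14.4% in the WT library. With replicate 2 held out, the values for 1149 regions were 59.0, 16.1 and 20.5%, and with replicate 3 held out, those for 1697 regions were 35.1, 9.78 and 13.9%. The held-out TetR-MYBTA library was thus the highest of the 3 in each case. Of all regions, the held-out TetR-MYBTA, TetR and WT libraries had a peak in 50.3, 61.0 and 49.6% for replicate 1, in 48.0, 57.3 and 55.3% for replicate 2, and in 38.0, 51.0 and 52.2% for replicate 3. Recurrence in TetR-MYBTA was therefore above the share over all regions for replicates 1 and 2 and below it for replicate 3, and the TetR and WT values were below theirs in all cases. The same choice for TetR recurred in 48.2 to 68.7% and for WT in 47.9 to 62.1% of regions. The 3 values of a line share libraries, so no p is given.

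**Figure D3:**
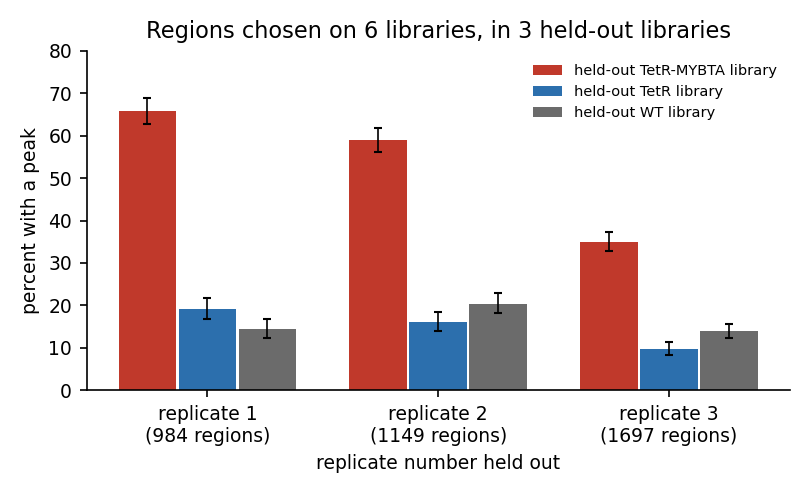
Percent of chosen regions with a peak (y axis; error bars are exact 95% binomial intervals, counting error only) in the held-out TetR-MYBTA, TetR and WT library, for each replicate number held out (x axis). The held-out TetR-MYBTA bars reach 65.9, 59.0 and 35.1%, and the TetR and WT bars lie between 9.78 and 20.5%.

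Just outside the rule, 1459 regions (1.41%) had a peak in 2 of 3 TetR-MYBTA libraries and 0 of 6 others. In 882 of these the missing library was replicate 3, against 241 for replicate 1 and 336 for replicate 2. The 4 highest in the lists were inside Cep57, Arl6 and Mzf1 and 0.239 kb from Cpsf4l, at mean percentiles of 98.3, 93.4, 92.9 and 97.0. Of the 491 regions with 1 peak among the other 6 libraries, that peak was most often in WT replicate 2 (117) or TetR replicate 1 (107) and least often in TetR replicate 3 (47). The highest were inside Triqk and Ensa and near Eps15l1 and Toporsl, at 96.7, 95.2, 92.3 and 90.2. Just inside the rule, the members lowest in the lists had mean percentiles from 3.41 to 5.86.

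The number of private regions depended on how much of each list was used. With the first 45136 rows of each list, TetR-MYBTA had 873, TetR 736 and WT 585, whereas with whole lists it had 451 against 1283 and 634. TetR-MYBTA thus moved from last to first, while TetR stayed above WT. With the upper 50% of each list, which leaves the lists unequal, the counts were 356, 851 and 439, in the same order as with whole lists. No statement on which line has most private regions is made. Without 1 TetR-MYBTA library the count was 698 (replicate 1), 789 (replicate 2) or 1331 (replicate 3), as the rule then asks for 2 of 2.

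Around the private regions lay a larger share of the other peaks of TetR-MYBTA libraries, though their numbers there overlapped those of the other libraries. The measure was the percent of a library's peaks that lay 1 to 50 kb from a private region. Only peaks outside the private regions and on the same chromosomes were counted. In TetR-MYBTA replicates 1 to 3 there were 1258, 1199 and 972 of 51742, 49292 and 38992 peaks. There were 1321, 1238 and 1124 in TetR and 1072, 1205 and 1131 in WT, of 51418 to 63265 peaks. The rule did not use these peaks, but it used the same 9 libraries. The p-values here are therefore not independent of it. The share was 2.43, 2.43 and 2.49% in TetR-MYBTA replicates 1 to 3. It was 2.09, 2.08 and 2.13% in TetR and 2.08, 2.10 and 2.09% in WT. The 3 TetR-MYBTA values lay above the other 6, which were nearly alike. The means were 2.45 ± 0.0352% (SD, n = 3) and 2.10 ± 0.0158% (SD, n = 6), a ratio of 1.17 (two-sided exact permutation p = 0.0119, adjusted p = 0.0275 over 15 tests of 3 private sets and 5 distances).

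**Figure D4:**
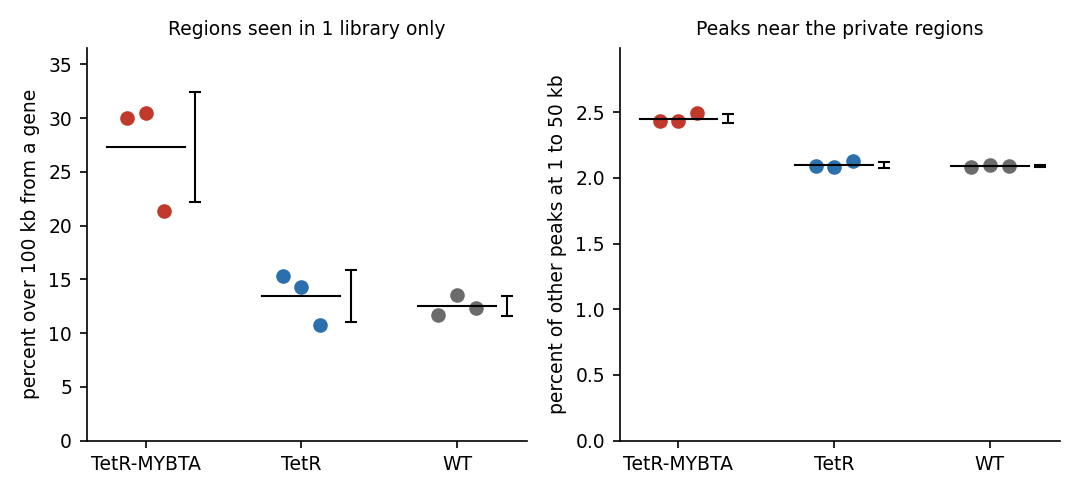
Left, percent of regions listed in 1 library only that lie over 100 kb from a protein-coding gene; right, percent of other peaks that lie 1 to 50 kb from a private region; points are the 9 libraries by line, lines are means and bars SDs (n = 3 each). TetR-MYBTA libraries are above the 6 others in both panels, from 21.4% on the left and from 2.43% on the right.

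The higher share reached far beyond the regions, and its ratio shrank with distance. The ratio of TetR-MYBTA to the other 6 libraries was 1.21 at 1 to 10 kb, 1.16 at 10 to 50 kb, 1.13 at 50 to 200 kb and 1.10 at 200 kb to 1 Mb (exact permutation p = 0.0119 and adjusted p = 0.0275 each). It was 1.17 among peaks of like distance to genes (5 classes of place given the same weight in each library), and 1.15 when averaged within chromosomes, both exact permutation p = 0.0119. Around regions private to TetR, TetR peaks had ratios from 1.10 at 1 to 10 kb (exact permutation p = 0.0238) to 1.01 at 200 kb to 1 Mb (exact permutation p = 0.464), and around those private to WT, WT peaks had ratios from 1.11 to 1.05 (exact permutation p = 0.0238 each). A higher local share of own-line peaks was thus seen for all 3 private sets, each chosen from the libraries compared. Whether its size differs between them was not tested.

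Private regions lay on all 19 autosomes. Chromosome 10 held most, 44 (9.76% of private and 6.28% of all regions), followed by chromosome 3 with 36, chromosome 4 with 34, and chromosome 5 and the kept part of chromosome 11 with 33 each. The latter held 7.32% of private and 4.68% of all regions even without its first 44 Mb. Chromosome 19 held 4 (0.887 and 2.61%), and chromosome 2 held 27 (5.99 and 8.31%).

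**Figure D5:**
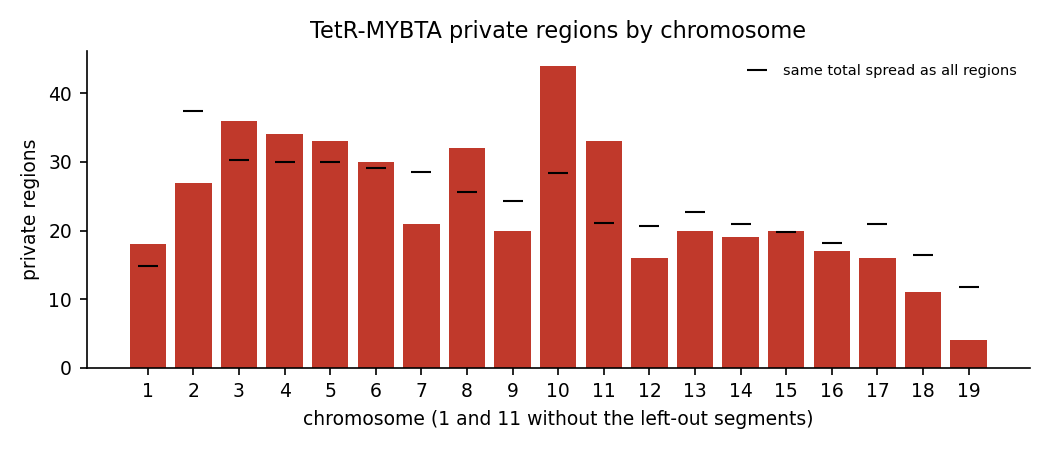
Number of private regions (y axis, bars) on each autosome (x axis); dashes mark where the same total of 451 would lie if spread like all 103630 regions. Chromosomes 10 (44) and 11 (33) lie above their dashes, and chromosomes 19 (4) and 2 (27) below.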

How the data were processed

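Peaks of 9 ATAC-seq libraries, 3 per line, were analysed as deposited lists in mm10 coordinates, printed counting from 1. Per the file headers, the authors called peaks in each library with HOMER findPeaks, with no control library, requiring 4-fold more tags than the surrounding 10 kb, a local p-value of 0.0001 and an FDR of 0.001. The submitters' processing notes list HOMER 4.11, deepTools 3.5.5, Picard, Bowtie2, Trim Galore 0.6.10 and FastQC. No source used here states a shift of reads for the Tn5 offset. The deposited score is a constant 1 throughout, so peaks were used as present or absent and list place is the row order, which follows HOMER's peak numbers within chromosomes (lowest Spearman rho over 180 chromosome lists 0.990, a description). Low in the lists, regions of 1 chromosome lay together in steps, so small differences in percentile there do not rank regions. In TetR-MYBTA replicate 3, chromosome 11 regions nearest Sox9 and Acsl6 stood at 6.10 and 6.23. Others nearest Sox9 and Nmur2 stood at 10.9 and 11.0. Whether tied peaks made these steps was not tested. No tag count of a single peak was used here, and so no interval of one is given.

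Total tags and thresholds of 11 or 12 tags came from the headers. Genes were 21887 protein-coding genes in RefSeq's GRCm38.p6 table, which shares mm10 coordinates; place is by gene ends, since the table has no exons. No genome sequence was used here, so sequence was read only where regions touched a RefSeq promoter window. Of 12 formative and primed names 11 matched, Oct6 being a second name of the listed Pou3f1; all names of the other lists matched.

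The private regions and gene lists were chosen with earlier results of these data known. Means over libraries were compared between lines with exact permutation tests, two-sided, with Benjamini-Hochberg adjustment. Tests on regions of 1 library were added after the data were seen. So were the band of 200 kb to 1 Mb and averages within chromosomes or gene-distance classes. Named were the 12 regions highest in the lists and over 1 kb from other lines' peaks, the 12 highest at gene ends, those within 50 kb of listed genes, groups of 3 or more within 100 kb, and the 4 highest just outside the rule in each direction; some on chromosome 18 or near gene families are only counted, and some listed genes are not reported here. Scripts were tested on simulated data. Same-numbered libraries of different lines did not deviate together (correlations from -0.00322 to 0.00712). Computing used scipy 1.17.1, pandas 2.3.3 and numpy 2.4.6 under Python 3.11.15, and plots matplotlib 3.10.9.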

Additional observations from a re-analysis of the deposited data

How the results depend on the processing

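The count of 451 private regions stayed within 1.5 times with the upper 50% of each list, other joining rules, all autosomes, or no peak of the other lines within 1 kb, but rose to 873 with lists of equal length and to 1910 with a peak in at least 2 of 3 TetR-MYBTA libraries, and ranged from 497 to 1331 when 1 library was left out. The share between genes stayed between 63.6 and 68.2% in the 6 alternatives tried. The share of other peaks at 1 to 50 kb was higher by 0.357 points in the main setting. This excess kept its direction and stayed past the threshold in 23 alternatives. All of these compared the libraries from which the private regions were chosen, so they are not an independent test of the excess. Without 1 library it was 0.372 to 0.849 points (exact permutation p up to 0.0357). Those settings differ in their number of private regions, and the ratios were 1.14 to 1.18, against 1.17 in the main setting. Against TetR alone the excess was 0.353 and against WT alone 0.360 points. There, 3 against 3 libraries cannot give a p below 0.1 (exact permutation p = 0.1 each). With the replicate number as a block it was 0.357 points (exact permutation p = 0.037, the smallest possible); the block changed no call, and the shared numbers do not show pairing. For regions of 1 library, the value of each library in turn was left out, with the regions still defined on all 9 libraries. Their excess over 100 kb from genes was then 12.7 to 17.3 points (exact permutation p up to 0.0357). Presence near the threshold of 11 or 12 tags limits every count.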

Other observations

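Some values belong to no comparison above. In 13 measures the 6 TetR and WT libraries were checked for a single library far from the others, and 0 such libraries were found. Private regions overlapped lncRNA genes in 47 cases (10.4%), close to the 11.1% of all regions. The nearest region of the union was 7.70 kb from the median private region, against 3.86 kb over all regions, and the nearest region with a peak in all 9 libraries was 31.7 kb away, against 21.5 kb for TetR private and 24.1 kb for WT private regions. The widths of private regions ran from 209 to 446 bp, with a median of 239 bp.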
